A study of Mus musculus with 5 samples.

Results

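The genes described here are 10 genes linked to Trem2 and to disease-associated microglia, out of 55573 genes counted in each library. They are Trem2, Tyrobp, Apoe, Cst7, Lpl, Spp1, Gpnmb, Axl, Lgals3 and Cd9, and they were chosen by name. The Ensembl identifier of each matched 1 mouse symbol, and all 10 had enough counts to be tested. Bulk RNA sequencing was used to ask whether ultrasound-mediated blood-brain barrier opening (UMBO) changed gene expression in the tumor-bearing hemisphere. UMBO is the application of low-intensity pulsed ultrasound to the head together with intravenous microbubbles, which loosens the vessel wall for a short time. All mice were C57BL/6 females that had received GL261 cells, a mouse glioma line carrying luciferase and mKate2, in the right caudate nucleus-putamen at 7 to 8 weeks of age. The vehicle group (3 libraries) was given inVivoPure pH 6.5 Dilution Buffer. The UMBO group (2 libraries) was given UMBO without an antibody. Treatment sessions were on days 21 and 24, and the right hemisphere was taken 24 h after the last session. The sources used here do not state whether vehicle mice were given microbubbles or whether UMBO mice were given buffer. Because GL261 is 1 transplanted line and each library is a whole hemisphere, tumor cells, brain cells and infiltrating blood cells all contribute RNA.

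TREM2 is a lipid-sensing receptor of microglia and macrophages that signals through the adapter TYROBP (DAP12). Microglia that surround plaques, dying cells or tumors are known to lower their homeostatic genes and to raise, in part through TREM2, a program of lipid handling, phagocytosis and lysosomal genes that includes Apoe, Lpl, Cst7, Spp1, Gpnmb, Axl, Lgals3 and Cd9. Most of these genes are also expressed outside microglia, for example Apoe in astrocytes and Cd9 in oligodendrocytes, and several are expressed by infiltrating macrophages.

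Promoters are shown for 4 of the genes. Trem2 and Cd9 were taken because their profiles over the libraries were the closest pair among the 10 genes. Cst7 and Spp1 were taken because their promoters hold GGAAGT, a motif of ETS factors. Sequences are the 250 bases upstream of the RefSeq start, read 5′ to 3′ on the gene's strand (RefSeq, GRCm38.p6). They span chr17:48346151-48346400 (+) for Trem2, chr6:125494761-125495010 (-) for Cd9, chr2:150570165-150570414 (+) for Cst7 and chr5:104434861-104435110 (+) for Spp1. Capitals mark the motifs that were found.
Trem2: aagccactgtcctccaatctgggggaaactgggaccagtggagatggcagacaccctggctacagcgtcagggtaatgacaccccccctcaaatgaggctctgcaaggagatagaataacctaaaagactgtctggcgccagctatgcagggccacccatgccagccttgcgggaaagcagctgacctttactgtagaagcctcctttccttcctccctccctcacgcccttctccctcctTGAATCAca
Cd9: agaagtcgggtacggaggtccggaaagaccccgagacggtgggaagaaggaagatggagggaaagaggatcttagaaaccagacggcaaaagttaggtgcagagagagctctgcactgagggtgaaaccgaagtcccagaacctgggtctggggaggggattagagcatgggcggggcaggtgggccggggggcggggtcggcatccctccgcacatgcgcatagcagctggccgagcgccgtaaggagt
Cst7: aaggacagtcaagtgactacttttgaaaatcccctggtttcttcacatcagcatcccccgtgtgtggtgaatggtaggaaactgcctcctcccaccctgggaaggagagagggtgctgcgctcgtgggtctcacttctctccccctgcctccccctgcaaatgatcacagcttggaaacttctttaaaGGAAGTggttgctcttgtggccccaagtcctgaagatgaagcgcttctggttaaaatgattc
Spp1: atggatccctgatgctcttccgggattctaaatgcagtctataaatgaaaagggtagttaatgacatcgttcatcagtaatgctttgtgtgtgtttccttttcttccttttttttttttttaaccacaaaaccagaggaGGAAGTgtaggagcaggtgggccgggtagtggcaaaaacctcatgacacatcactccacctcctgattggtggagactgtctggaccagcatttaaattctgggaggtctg

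An entry was found for 8 of the 10 genes, the genes without one being Tyrobp and Lpl. Both strands were searched for GGAAGT, a longer form of the GGAA core of sites bound by ETS factors such as PU.1. GGAA alone was not searched for. This motif lay in the promoters of Cst7 (62 to 57 bases upstream) and Spp1 (111 to 106 bases upstream), 2 of 8, and in 19.7% of all 32851 promoter windows of the same length. TGANTCA, a loose form of the AP-1 motif that allows any base at its centre, lay in the promoter of Trem2 alone among the 8 (9 to 3 bases upstream). It lay in 6.75% of all windows. The letters in Trem2 were TGAATCA, with A at the centre, where the AP-1 consensus has C or G. CACGTG, the E-box that MITF and TFE factors bind, was in none of the 8 and in 6.02% of all windows. No motif overlapped another in these genes, and the RefSeq start used for Lgals3 lies 6109 bases from the start of the annotated gene. Such matches are a description of letters and not of binding.

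The 5 libraries held between 59736771 and 86164159 counted reads, so counting error is small, and the lowest count of any of the 10 genes was 160 reads, for Cst7 in vehicle replicate 1. Levels are given as CPM, the count of a gene scaled to a common library size, after TMM scaling. UMBO replicate 2 stood apart from the other libraries, at 133.7 on a first component that held 78.7% of the variance, against -68.4 to 17.0 in the others. Fold changes and list medians below are therefore also given without it. Of 23592 genes tested with edgeR's quasi-likelihood test, 0 had an adjusted p under 0.05, a share of 0%, and 1738 had an unadjusted p under 0.05. Microglia markers were present in every library, with P2ry12 at 20.8 to 51.7 CPM and Tmem119 at 22.7 to 60.1 CPM, so the tissue holds the cells the gene group is named for. In bulk tissue, more cells of a type and more RNA per cell cannot be told apart.

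All 10 genes had a higher mean with UMBO than with vehicle, and 0 of the 10 passed the adjusted threshold (edgeR adjusted p = 0.497 for each). The median of their log2 fold changes was 1.65, beside 0.01 over all genes tested. An unadjusted p under 0.05 was found for 5 of the 10 (Trem2, Tyrobp, Lpl, Spp1 and Cd9), where 5.30% of all genes had such a p and were higher. In 6 of the 10, the same 5 genes and Apoe, the groups were separate, with each UMBO library higher than all 3 vehicle libraries. This held for 11.5% of all genes. The opposite separation was found for 0 of the 10 and 11.4% of all genes, and a lower level at an unadjusted p under 0.05 for 0 of the 10 and 2.06% of all genes. Without UMBO replicate 2 the median was 0.57, and 2 of the 10 (Spp1 and Cd9) had an unadjusted p under 0.05, against 1.15% of all genes. Without UMBO replicate 1, where a single UMBO library is assumed to vary like the vehicle libraries, the same 5 genes passed the adjusted threshold, as did 10.1% of all genes in that direction. With the replicate number as a block, which nothing in the labels ties to a shared batch, 8 of the 10 passed, against 6.05% of all genes. The group difference in that fit rests on replicates 1 and 2, since vehicle replicate 3 has no UMBO partner.

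**Figure D1:**
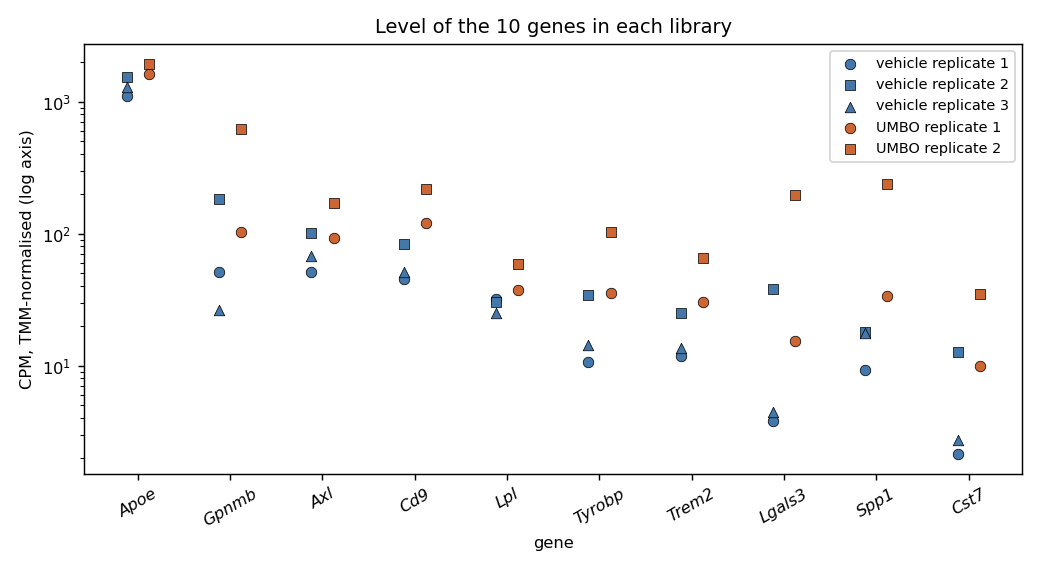
TMM-normalised CPM (log axis) of the 10 genes in the 3 vehicle libraries (blue) and the 2 UMBO libraries (orange), 1 point per library, with genes ordered by the vehicle mean. UMBO replicate 2 is the highest point for every gene, while UMBO replicate 1 lies below vehicle replicate 2 for Gpnmb, Axl, Lgals3 and Cst7.

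The receptor Trem2 (chromosome 17, 48346401 to 48354147, forward strand, GRCm38) was at 11.9, 24.9 and 13.6 CPM in vehicle replicates 1 to 3 and at 30.1 and 65.2 CPM in UMBO replicates 1 and 2. The groups did not overlap, but UMBO replicate 1 exceeded vehicle replicate 2 by only 1.21-fold. This was 16.8 ± 7.08 CPM (SD, n = 3) against 47.6 ± 24.8 CPM (SD, n = 2), which gave a log2 fold change of 1.50 (SE, its standard error, 0.442, edgeR unadjusted p 0.0146). Without UMBO replicate 2 the log2 fold change was 0.84 (SE 0.390). Tyrobp (chromosome 7, 30413760 to 30417585, forward strand), the adapter that carries the intracellular signaling motif for TREM2, was at 10.6, 34.3 and 14.4 CPM with vehicle and at 35.6 and 102 CPM with UMBO. Vehicle replicate 2 and UMBO replicate 1 were nearly level for this gene, 1.04-fold apart, and UMBO replicate 2 was 5.18 times the vehicle mean. The log2 fold change of Tyrobp was 1.80 (SE 0.626, edgeR unadjusted p 0.0281), and 0.85 (SE 0.554) without UMBO replicate 2. On the log2 CPM scale the difference between Trem2 and Tyrobp within a library was 0.17, -0.46 and -0.09 with vehicle and -0.24 and -0.65 with UMBO. The groups overlapped in this measure.

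Apoe (chromosome 7, 19696109 to 19699188, reverse strand), the apolipoprotein that carries cholesterol between brain cells, was the most abundant of the 10 and one of the least variable. Its levels were 1103, 1525 and 1286 CPM with vehicle and 1624 and 1944 CPM with UMBO. The groups were separate, UMBO replicate 1 being 1.06 times vehicle replicate 2. Its log2 fold change of 0.45 (SE 0.285, edgeR unadjusted p 0.164) was the lowest of the group, and it was 0.32 without UMBO replicate 2. Astrocytes also express Apoe, and their part was not tested. The summed level of 8 astrocyte genes was 3604 to 5009 CPM with vehicle, 4656 CPM in UMBO replicate 1 and 2188 CPM in UMBO replicate 2. Slc1a2 was the largest of these, at 2739, 1798 and 2887 CPM with vehicle and at 2491 and 765 CPM with UMBO. Of the 8 genes, 5 had a log2 fold change above 0 and 3 below. Their median was 0.03, or 0.22 without UMBO replicate 2. Lpl (chromosome 8, 68880491 to 68907448, forward strand), which encodes lipoprotein lipase, was at 31.8, 30.6 and 25.1 CPM with vehicle and at 37.7 and 58.6 CPM with UMBO. It had the tightest vehicle libraries of the 10 genes, with a highest-to-lowest ratio of 1.27. The log2 fold change was 0.72 (SE 0.238, edgeR unadjusted p 0.0230), and 0.37 (SE 0.206) without UMBO replicate 2.

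Spp1 (chromosome 5, 104435118 to 104441050, forward strand), which encodes the secreted phosphoprotein osteopontin, had the highest log2 fold change of the 10, at rank 33 among all 23592 genes. It was at 9.24, 17.9 and 17.8 CPM with vehicle, at 33.9 CPM in UMBO replicate 1 and at 237 CPM in UMBO replicate 2. UMBO replicate 1 was 1.89 times vehicle replicate 2, the widest such gap in the group, and UMBO replicate 2 was 15.8 times the vehicle mean. The log2 fold change was 3.18 (SE 0.776, edgeR unadjusted p 0.00641), and 1.18 (SE 0.358) without UMBO replicate 2. The DESeq2 Wald test gave Spp1 an adjusted p of 0.0115, the only 1 of the 10 genes that it called, where it called 0.121% of all genes as higher. Spp1 shares 309 exonic bases with Gm42793 on the same strand. Whether reads from these bases were counted for Spp1 is not given in the sources used here.

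Cd9 (chromosome 6, 125460266 to 125494791, reverse strand), a tetraspanin of the plasma membrane, was at 45.6, 83.0 and 51.6 CPM with vehicle and at 121 and 217 CPM with UMBO. The groups were clearly apart, with UMBO replicate 1 at 1.45 times vehicle replicate 2. Its log2 fold change of 1.49 (SE 0.363) had the smallest edgeR unadjusted p of the 10, at 0.00631. Without UMBO replicate 2 it was 1.00 (SE 0.323), so Cd9 lost the least of its size among the genes that began above 1. Cd9 shares 218 exonic bases with Gm26728 on the opposite strand, and whether the counting used strand is not given in the sources used here.

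In the other 4 genes UMBO replicate 1 lay inside the vehicle range. Lgals3 (chromosome 14, 47367751 to 47386160, forward strand), which encodes galectin-3, a sugar-binding protein of phagocytes and damaged lysosomes, was at 3.78, 37.8 and 4.49 CPM with vehicle, at 15.4 CPM in UMBO replicate 1 and at 195 CPM in UMBO replicate 2. Vehicle replicate 2 was 10.0 times vehicle replicate 1, the widest vehicle spread of the group. The log2 fold change was 2.77 (SE 1.34, edgeR unadjusted p 0.0842) with all libraries, 0.01 (SE 1.17) without UMBO replicate 2 and 4.71 (SE 1.19) without vehicle replicate 2. No other gene of the 10 had a wider range of values over the left-out libraries.

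Gpnmb (chromosome 6, 49036546 to 49070929, forward strand), a transmembrane glycoprotein of lysosomes in lipid-laden macrophages, was at 51.6, 182 and 26.5 CPM with vehicle and at 103 and 624 CPM with UMBO. UMBO replicate 1 was 0.565 times vehicle replicate 2. The log2 fold change was 2.07 (SE 0.998, edgeR unadjusted p 0.0835), and 0.24 (SE 0.866) without UMBO replicate 2. Cst7 (chromosome 2, 150570415 to 150578944, forward strand), which encodes cystatin F, an inhibitor of lysosomal cysteine cathepsins, was the least abundant of the 10 in CPM, at 2.14, 12.6 and 2.72 with vehicle and 9.97 and 35.2 with UMBO. UMBO replicate 1 was above 2 of the 3 vehicle libraries and below vehicle replicate 2. The log2 fold change of Cst7 was 1.95 (SE 0.896, edgeR unadjusted p 0.0720), and 0.77 (SE 0.874) without UMBO replicate 2. Axl (chromosome 7, 25757273 to 25788705, reverse strand), a receptor tyrosine kinase for the clearance of dying cells, was at 51.5, 102 and 68.2 CPM with vehicle and at 92.0 and 171 CPM with UMBO. Its log2 fold change was 0.83 (SE 0.380, edgeR unadjusted p 0.0709), and 0.32 (SE 0.350) without UMBO replicate 2.

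**Figure D2:**
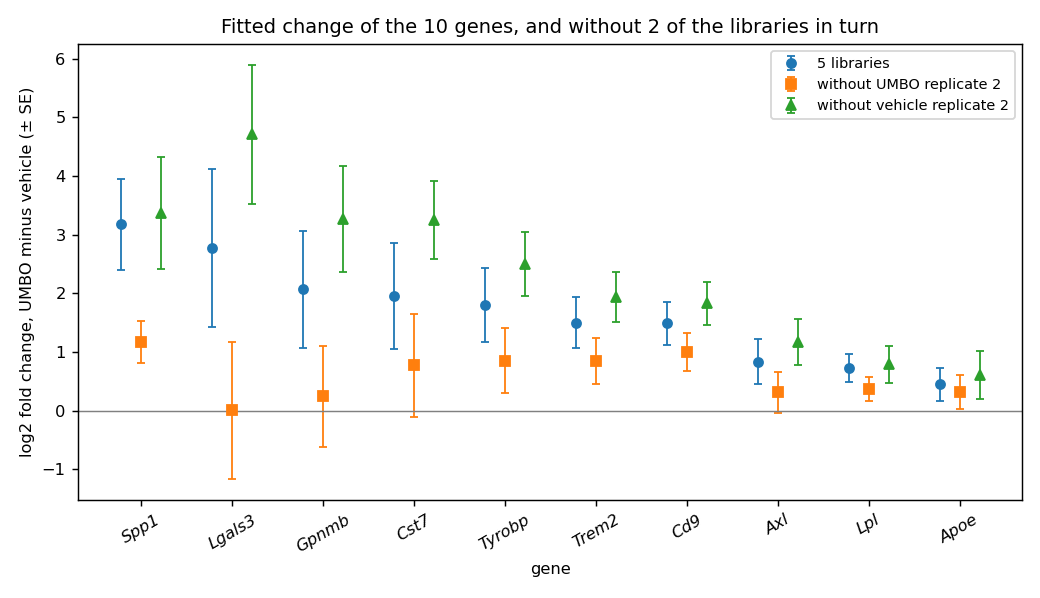
Log2 fold change, UMBO minus vehicle, with its SE from edgeR, for the 10 genes over 5 libraries (circles), without UMBO replicate 2 (squares) and without vehicle replicate 2 (triangles). Spp1 and Cd9 stay near or above 1 without UMBO replicate 2, at 1.18 and 1.00, while Lgals3 lies at 0.01.

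The order of the libraries was much the same from gene to gene. UMBO replicate 2 was the highest library for 10 of the 10 genes, which was true of 40.4% of all genes. Vehicle replicate 2 was the highest vehicle library for 9 of the 10, the exception being Lpl, against 39.3% of all genes. Vehicle replicate 1 was the lowest of the 5 libraries for 8 of the 10, against 24.0% of all genes. UMBO replicate 1 was above every vehicle library for 6 of the 10, against 18.6% of all genes. Left out in turn, vehicle replicate 2 and UMBO replicate 1 each brought the number of genes with separate groups from 6 to 10. Over all genes the share was 30.1% in the first case and 42.2% in the second.

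The spread between the UMBO libraries differed widely among the genes. UMBO replicate 2 was 1.20 times UMBO replicate 1 for Apoe, 1.56 times for Lpl, 1.80 times for Cd9 and 2.16 times for Trem2. It was 6.08 times for Gpnmb, 6.99 times for Spp1 and 12.6 times for Lgals3. Likeness was measured as the root mean square distance between the log2 CPM profiles over the 5 libraries, each gene centred on its own mean. By this measure Trem2 and Cd9 were the closest pair (distance 0.11), the nearest gene to Tyrobp was Trem2 (0.29), and the nearest to Lgals3 was Gpnmb (0.68). Cst7 and Spp1 were each nearest to Tyrobp (0.39 and 0.70), Gpnmb to Cst7 (0.49) and Axl to Apoe (0.32). Apoe was nearest to Lpl (0.26) and farthest from Lgals3 (1.84).

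Among genes outside the group, Trem2 was matched most closely by Itgam, at a distance of 0.04 among 11957 genes that spanned at least 1 log2 unit. Itgam encodes CD11b, the integrin subunit that marks microglia and other myeloid cells. It was at 7.86, 16.5 and 9.47 CPM with vehicle and at 20.8 and 46.3 CPM with UMBO, close to a constant fraction of Trem2 in every library. The next nearest were Tgfb1 (distance 0.07), which encodes the cytokine that maintains microglia, Cd109 (0.08), Ctsd (0.09), which encodes the lysosomal protease cathepsin D, and Gm18119 (0.09), which was at most 0.473 CPM in any library. These distances are a description over 5 libraries that share the position of UMBO replicate 2.

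**Figure D3:**
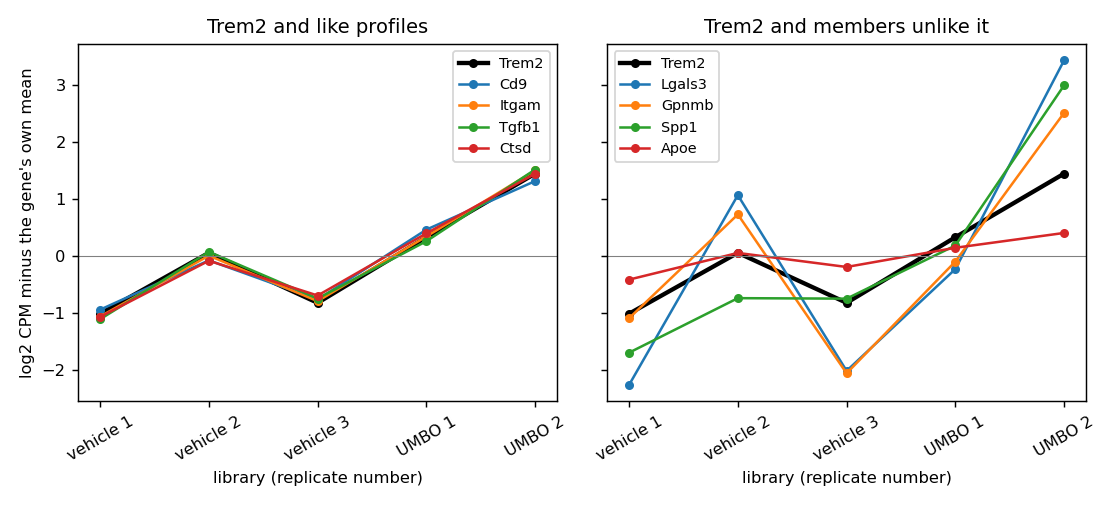
Log2 CPM minus the gene's own mean over the 5 libraries, with lines joining the values of 1 gene. On the left, Cd9, Itgam, Tgfb1 and Ctsd lie almost on the profile of Trem2, and on the right, Lgals3 and Gpnmb show a wider span with vehicle replicate 2 above UMBO replicate 1, while Apoe is nearly flat.

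The members of the receptor pathway and its partners were counted from lists written by name. In the list of TREM2 receptor signaling and processing, 15 of 16 genes were tested (Trem1 was at most 0.702 CPM), and the median log2 fold change was 0.78, which was 0.43 without UMBO replicate 2 and 1.11 without UMBO replicate 1. In this list 0 genes passed the adjusted threshold, 5 were higher and 0 lower at an unadjusted p under 0.05, beside 5.30% and 2.06% of all genes, and 7 had separate groups, beside 11.5% of all genes. The smallest unadjusted p were those of Blnk, an adapter of the SYK pathway, with a log2 fold change of 1.07 (SE 0.345), Inpp5d, which encodes the lipid phosphatase SHIP1, with 0.77 (SE 0.257), and Vav1, a signaling protein of blood cells, with 1.43 (SE 0.517). Without UMBO replicate 2 these values were 0.52 for Blnk, 0.43 for Inpp5d and 0.65 for Vav1. Blnk was at 9.29, 8.75 and 6.13 CPM with vehicle and at 11.6 and 22.3 CPM with UMBO. Adam10, which encodes a protease that sheds TREM2 from the cell surface, was at 88.5 to 105 CPM with vehicle and at 109 and 82.4 CPM with UMBO, with overlapping groups. Adam17, another protease gene of this list, was at 20.5, 26.1 and 26.4 CPM with vehicle and at 31.2 and 37.2 CPM with UMBO, with separate groups. Its log2 fold change was 0.49 (SE 0.193, edgeR unadjusted p 0.0442), or 0.36 without UMBO replicate 2.

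In the list for lipid handling around Apoe and Lpl, 20 of 22 genes were tested and the median log2 fold change was 0.29, which was 0.050 without UMBO replicate 2 and 0.39 with scaling by library size alone. At an unadjusted p under 0.05, 3 of the 20 genes were higher (5.30% of all genes) and 0 lower (2.06%), and 0 passed the adjusted threshold. Ch25h, which makes 25-hydroxycholesterol, was at 0.174, 1.26 and 0.461 CPM with vehicle and at 1.70 and 8.78 CPM with UMBO, a log2 fold change of 3.05 (SE 0.970), or 1.43 without UMBO replicate 2. Plin2, a coat protein of lipid droplets, was at 15.3 CPM in UMBO replicate 1, inside the vehicle range of 7.03 to 19.9 CPM, and at 89.1 CPM in UMBO replicate 2. Its log2 fold change was 2.09 (SE 0.764) with that library and 0.32 without it. Npc2, which moves cholesterol out of lysosomes, was the other gene named, with a log2 fold change of 1.17 (SE 0.467), or 0.41 without UMBO replicate 2. On the other side of 0 were 3 lipoprotein receptors, with log2 fold changes of -0.52 for Lrp1 (SE 0.309), -0.61 for Vldlr (SE 0.362) and -0.71 for Sorl1 (SE 0.460), none of them past an unadjusted p of 0.05. They were at -0.21, -0.15 and -0.18 without UMBO replicate 2.

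Axl is 1 of 3 receptors of its family. Mertk was at 42.0, 41.3 and 44.5 CPM with vehicle and at 45.0 and 41.5 CPM with UMBO, a log2 fold change of 0.02 (SE 0.149), beside 0.83 for Axl. Without UMBO replicate 2 these were 0.08 for Mertk and 0.32 for Axl. Tyro3, the family member of neurons, was at 140 to 214 CPM with vehicle and at 133 and 94.9 CPM with UMBO, a log2 fold change of -0.58 (SE 0.275), or -0.36 without UMBO replicate 2. Of the ligands, Pros1 had a log2 fold change of 0.91 (SE 0.308, edgeR unadjusted p 0.0250) with separate groups, and 0.62 without UMBO replicate 2. For Gas6 it was -0.06 (SE 0.177), but 0.05 with scaling by library size alone and 0.04 without UMBO replicate 2. The difference between Axl and Mertk within a library, on the log2 CPM scale, was 0.30, 1.30 and 0.62 with vehicle and 1.03 and 2.05 with UMBO, so it overlapped between the groups.

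Of 12 partners and relatives of Spp1, Lgals3 and Cd9, 6 were higher (5.30% of all genes) and 0 lower (2.06%) at an unadjusted p under 0.05, and 0 passed the adjusted threshold. Their median log2 fold change was 0.76, or 0.38 without UMBO replicate 2. Cd44, a receptor for osteopontin, was at 8.83, 23.5 and 10.8 CPM with vehicle and at 28.4 and 72.4 CPM with UMBO, a log2 fold change of 1.81 (SE 0.548), or 0.98 without UMBO replicate 2. Both other genes named for this list were integrin chains, Itgb5 at 0.75 (SE 0.243) and Itgb1 at 0.77 (SE 0.271), each with separate groups. They were at 0.67 and 0.39 without UMBO replicate 2. Another list held 22 further genes of disease-associated microglia, 4 of them also in the lists above. Here 10 of 22 were higher (5.30% of all genes) and 0 lower (2.06%) at an unadjusted p under 0.05, 0 passed the adjusted threshold, and the median log2 fold change was 1.23, or 0.47 without UMBO replicate 2. Ctsd (1.57, SE 0.419), the chemokine Ccl6 (2.32, SE 0.634) and the lysosomal marker Cd68 (1.73, SE 0.520) had the smallest unadjusted p, and their log2 fold changes without UMBO replicate 2 were 0.95, 1.48 and 0.78. Igf1, also a gene of this list, was at 12.3 to 12.9 CPM in all 5 libraries.

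Homeostatic microglia genes were set beside the 10 genes in each library. Of 12 such genes, 7 were higher (5.30% of all genes) and 0 lower (2.06%) at an unadjusted p under 0.05, 0 passed the adjusted threshold, and 10 had separate groups (11.5% of all genes). Their median log2 fold change was 0.61, or 0.56 without UMBO replicate 2. Fcrls, Olfml3 and Cx3cr1 had the smallest unadjusted p, with log2 fold changes of 1.60 (SE 0.149), 1.12 (SE 0.285) and 0.73 (SE 0.192). They were at 1.62, 0.96 and 0.56 without UMBO replicate 2. The 12 homeostatic genes had a median log2 CPM, set against that of the vehicle mean, of 0.58 and 0.62 in UMBO replicates 1 and 2. The median of the 10 disease-associated genes was 0.88 and 2.29 in the same libraries. The homeostatic genes were thus level between the UMBO libraries and the disease-associated genes were not. The disease-associated median minus the homeostatic median was -0.24, 0.40 and -0.26 with vehicle and 0.30 and 1.67 with UMBO, so UMBO replicate 1 lay below vehicle replicate 2 in this difference and the groups overlapped.

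Marker lists of other cells went in different directions, and their part in the result was not tested. Of 6 oligodendrocyte genes, 1 had a log2 fold change above 0 and 5 below. Their median was -0.04, or 0.06 without UMBO replicate 2. All 5 choroid plexus genes were below 0, with a median of -0.49, or -0.09 without UMBO replicate 2. All 5 red blood cell genes were above 0, with a median of 0.62, or 0.51 without UMBO replicate 2. Of 5 oligodendrocyte progenitor genes, 3 were above 0 and 2 below, with a median of 0.66, or 0.09 without UMBO replicate 2. For monocytes and macrophages, 12 of 12 genes had a log2 fold change above 0 and 1 was higher at an unadjusted p under 0.05, beside 5.30% of all genes. Their median log2 fold change was 1.18, or 0.18 without UMBO replicate 2. Their summed level was 109 to 175 CPM with vehicle and 170 and 312 CPM with UMBO. The monocyte receptor Ccr2 was at 1.16, 3.50 and 2.35 CPM with vehicle and at 1.90 and 11.7 CPM with UMBO, so in UMBO replicate 1 it was inside the vehicle range. The proliferation list, in which 10 of 10 genes were higher at an unadjusted p under 0.05 (5.30% of all genes), had a summed level of 36.5 to 109 CPM with vehicle and of 119 and 471 CPM with UMBO. Its median log2 fold change was 2.14, or 0.93 without UMBO replicate 2. For neurons 8 of 8 genes had a log2 fold change below 0. Their median was -0.41, or -0.19 without UMBO replicate 2, when not all 8 were below 0. Their summed level was 5241 to 8067 CPM with vehicle and 5464 and 2601 CPM in UMBO replicates 1 and 2. Endothelial genes were higher at an unadjusted p under 0.05 in 3 of 7 and fibroblast genes in 3 of 6, beside 5.30% of all genes. Summed over each list, the level was higher in UMBO replicate 1 than in UMBO replicate 2 (269 and 246 CPM, and 196 and 186 CPM). The 3 endothelial genes counted as higher did not follow their sum, and each was higher in UMBO replicate 2 than in UMBO replicate 1. Neutrophil genes were low, with a summed level of 5 genes of 0.425 to 1.71 CPM with vehicle and of 0.819 and 5.11 CPM with UMBO, and Ly6g was at most 0.0445 CPM in any library. Of the 3 neutrophil genes tested, S100a8 had a log2 fold change of 2.38 (SE 0.883, edgeR unadjusted p 0.0356), S100a9 of 1.87 (SE 0.891) and Retnlg of 1.05 (SE 1.25), and these were 0.37, -0.40 and -0.14 without UMBO replicate 2.

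**Figure D4:**
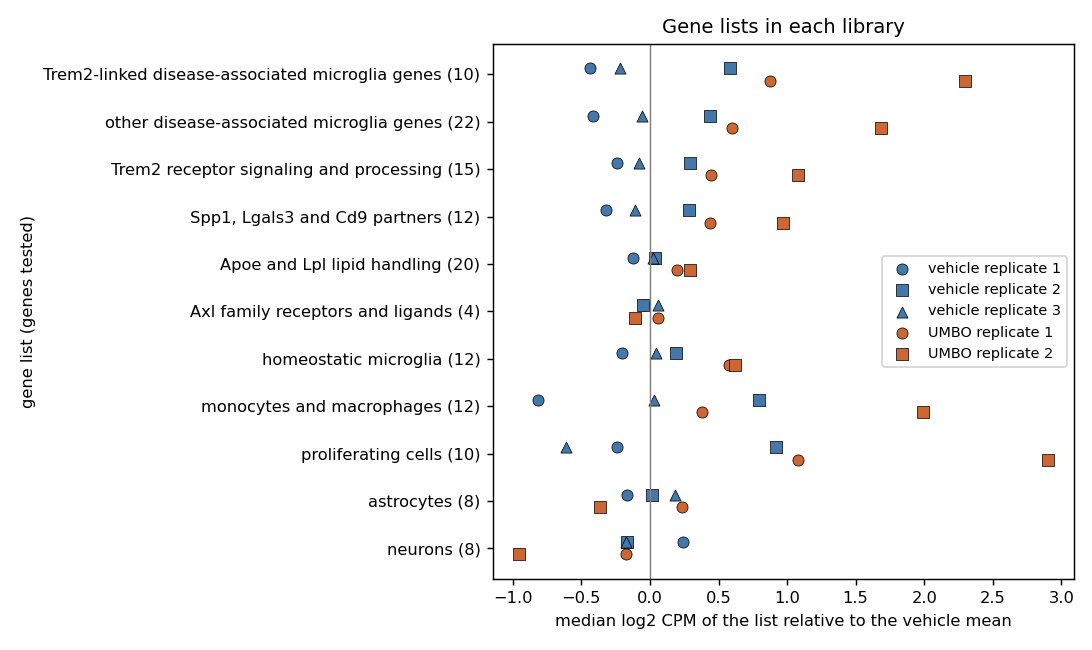
Median log2 CPM of each gene list relative to the vehicle mean, with 1 point per library and the number of genes tested in brackets. The 10 Trem2-linked genes are at 0.88 and 2.29 in the UMBO libraries, whereas the homeostatic microglia genes are at 0.58 and 0.62, and the list for monocytes and macrophages is at 0.38 and 1.99.

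Levels of different genes were compared per length, as TPM (counts per length of the annotated gene, scaled to the same total in each library). With the length of all annotated exons joined, Apoe was at 1612 ± 261 TPM (SD, n = 3) with vehicle, far above Cd9 at 76.7 ± 20.2 and Tyrobp at 76.3 ± 42.5, which did not differ beyond their spread. Below them came Axl at 38.5 ± 11.3, Gpnmb at 33.1 ± 29.5, Spp1 at 24.3 ± 9.23, Lgals3 at 20.4 ± 24.6, Cst7 at 14.8 ± 13.8, Trem2 at 8.83 ± 3.00 and Lpl at 7.32 ± 0.395 TPM. Apart from Apoe and Cd9, every pair of neighbours in this order overlapped in its vehicle range. The place of Trem2 depended on the length used, since its joined exons span 4946 bases and its principal transcript 1088 bases. Over principal transcripts Trem2 was at 30.9 ± 10.9 TPM with vehicle, at rank 6 of the 10, and at 81.7 ± 33.5 TPM (SD, n = 2) with UMBO. On that scale Spp1 was at 20.4 ± 7.54 TPM with vehicle, at rank 8 of the 10, and at 162 ± 162 TPM with UMBO, at rank 5.

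**Figure D5:**
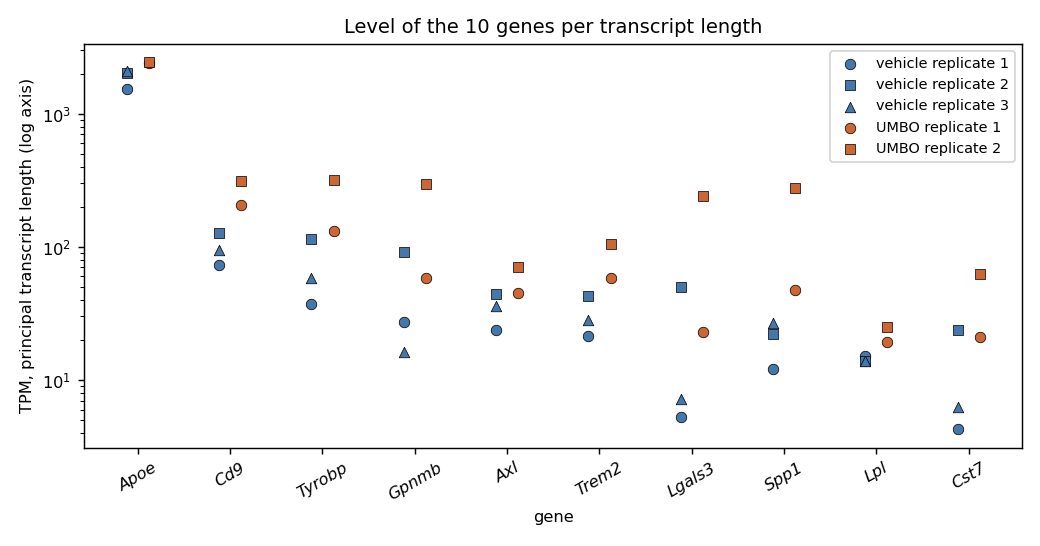
TPM over the length of the principal transcript (log axis) of the 10 genes in each library, ordered by the vehicle mean. Apoe stands above all other genes in every library, and the vehicle points of neighbouring genes below Cd9 overlap.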

How the data were processed

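The 5 libraries (3 vehicle and 2 UMBO) hold mRNA of the tumor-bearing hemisphere. Groups and replicate numbers were read from the sample titles. The authors aligned the reads to GRCm38 with STAR 2.7.2a. What they deposited, a table for each library, are counts per gene that have not been normalized. The annotation release and strand setting are not given in the sources used here. Symbols for 55394 genes, positions and exon lengths were taken from GENCODE M21, which is on the same build. TMM scaling and filterByExpr left 23592 genes for a quasi-likelihood fit in edgeR 4.0.16, run in R 4.3.3. Benjamini-Hochberg adjustment covered all of them, at a threshold of 0.05. Log2 CPM used a prior count of 2, and fold changes are UMBO minus vehicle. Every pair of libraries differed by more than counting noise (chi-square per gene at least 58.1), so none was counted as a duplicate. The methods describe 3 tumor-bearing mice in each group, so a replicate is taken as 1 mouse, and only 2 UMBO libraries were analysed here. Depth, 59736771 to 86164159 reads per library, leaves the number of libraries as the limit on precision. An exact permutation test of 3 against 2 cannot go below 0.1, so none is given.

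The 10 genes, the lists and the promoter motifs were chosen with earlier results of these data known. Named besides the 10 genes were, from each pathway list, 3 genes taken in order of p, and the 5 genes nearest to Trem2. Named for context after their values were seen were Trem1, Adam10, Adam17, Lrp1, Vldlr, Sorl1, Mertk, Tyro3, Gas6, Igf1, P2ry12, Tmem119, Slc1a2, Ccr2, Ly6g, S100a8, S100a9 and Retnlg. Scripts were tested on simulated data. Alternatives were DESeq2 1.42.0, limma 3.58.1 (voom), other scalings and filters, the replicate number as a block, and each library left out in turn. The length of the principal transcript was added after the data were examined, as was leaving out each library for the counts of separate groups and for the difference from homeostatic genes.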

Additional observations from a re-analysis of the deposited data

How the results depend on the processing

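With 3 libraries against 2, the results rest on single libraries. The log2 fold changes of the 10 genes stayed above 0 under every scaling, filter, test and left-out library that was run. Genes past the adjusted threshold, 0 as reported, numbered 40 with the DESeq2 Wald test and 0 to 4543 with 1 library left out, the highest being without UMBO replicate 1, where the lone UMBO library is assumed to vary like the vehicle libraries. Of the 10 genes, the number past it was 1 with the DESeq2 Wald test (Spp1) and 0 to 5 with 1 library left out, 5 of them without UMBO replicate 1 (Trem2, Tyrobp, Lpl, Spp1 and Cd9), where 10.1% of all genes were called higher. Unadjusted p under 0.05 were found for 1738 genes, and for 4100 without a filter on low counts, 2738 with the DESeq2 Wald test and 296 to 10165 with 1 library left out. Among the 10 genes there were 5, against 9 without a filter and 2 to 9 with 1 library left out (2 without vehicle replicate 3 or without UMBO replicate 2, 9 without vehicle replicate 2 or without UMBO replicate 1). The cause was not tested for these. The number of the 10 genes with separate groups was 6, and 6 to 10 with 1 library left out.

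With 1 library left out, the 10 genes had a median log2 fold change between 0.57 and 2.22. For the lists the range was 0.43 to 1.11 for receptor signaling, 0.050 to 0.35 for lipid handling (0.39 with library size only, a scaling that moved the median of all genes from 0.01 to 0.13), 0.38 to 0.94 for the partners of Spp1, Lgals3 and Cd9, and 0.47 to 1.62 for the other disease-associated genes. In each of these the lowest value was without UMBO replicate 2. The numbers past the adjusted threshold with 1 library left out were 0 to 7 for receptor signaling, 0 to 9 for lipid handling, 0 to 5 for the partners, 0 to 12 for the other disease-associated genes and 0 to 5 for the homeostatic genes, of which the DESeq2 Wald test called 1.

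Under the replicate block, the adjusted threshold was passed by 2337 genes (6134 at an unadjusted p under 0.05) and by 8 of the 10 (9 unadjusted), where 6.05% of all genes were called higher. List counts, like the 2337 of 23592 genes, take either direction. They were 6 of 15 for receptor signaling, 5 of 20 for lipid handling and 1 of 4 for the Axl family. For the partners the count was 7 of 12, for the other disease-associated genes 14 of 22 and for the homeostatic genes 5 of 12. Nothing in the labels says that a number marks a shared litter or day, so the numbers are not taken as pairs. Only 2 numbers are shared (correlations of deviations from the group mean 0.453 and 0.760), and vehicle replicate 3 adds nothing to the group difference. With 2 UMBO libraries the deviations of 1 mirror those of the other, so the 2 correlations are not independent.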
